A study of Arabidopsis thaliana with 30 samples.

Results

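The response of intact, undigested Arabidopsis thaliana roots to the plant hormone auxin was read from 6 of the 30 arrays of the series, chosen by their titles: 3 arrays of auxin-treated and 3 of mock-treated intact roots. All seedlings were of the accession Col-0 and 1 week old. Auxin seedlings received 5 µM indole-3-acetic acid (IAA, the main natural auxin) for 2 h, and mock seedlings received the solvent alone. The growth notes allow for hydroponic culture or agar plates without saying which array had which, and they do not name the plant line behind the intact roots. The other 24 arrays, used only for comparison, held 3 mock and 3 auxin samples each of cells sorted by fluorescence from 4 root tissues: the stele (pWOL::GFP), the xylem-pole pericycle (E3754), the epidermis with the lateral root cap (pWER::GFP) and the columella (PET111). Those cells had first been released by 1 h of cell wall digestion, with IAA still present for the auxin samples. Whether replicates are separate cultures is not labelled, and the p-values reflect the spread of these arrays alone, part of which may be technical.

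Auxin acts by joining TIR1/AFB receptors to Aux/IAA repressor proteins, which are then degraded, and this frees ARF transcription factors to act on their targets. Among the early targets are the Aux/IAA genes themselves and the GH3 genes, whose enzymes attach amino acids to auxin and so lower its free level. In the root, auxin also starts lateral roots from the pericycle through LBD transcription factors, and it limits cell elongation.

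An intact root holds every cell type, including the endodermis and cortex, for which no sorted sample exists in the series, and it was measured without the digestion step. Across all probe sets, whose values are not independent of one another, Pearson's r on the log2 scale was 0.976 to 0.982 for arrays of the same treatment and 0.947 to 0.952 for mock against auxin arrays. The first principal component of the 6 arrays took 58.4% of the variance and separated all 3 mock arrays from all 3 auxin arrays. The median SD of the 3 arrays was 0.22 (log2) in both intact groups and 0.26 to 0.36 in the sorted groups. The 3'/5' signal ratio of a control is a sign of RNA quality and labelling. For actin it was 2.04 to 2.23 in mock and 1.86 to 2.61 in auxin arrays, and for GAPDH 2.53 to 3.09 and 3.04 to 3.34. The ubiquitin control had higher ratios, at 3.72 to 4.86 in mock and 3.95 to 4.24 in auxin arrays.

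Of 22746 probe sets, 1137 (5.00%) were higher and 1017 (4.47%) lower after 2 h of auxin at an adjusted p under 0.05. Changes are differences of log2(signal + 16), fitted in limma over all 30 arrays and given with their standard error, and p-values are adjusted by the Benjamini-Hochberg method over all probe sets. Among the 13356 genes that a probe set of their own names, 600 (4.49%) were higher and 487 (3.65%) lower. The median change of all named genes was -0.03, so calls in either direction stand against a centre near 0. The rises reached further than the falls. Over 4-fold there were 96 higher and 24 lower genes, over 8-fold 29 and 1, and over 16-fold 12 and 0. The genes that rose began lower: their median mock level was at the 58.9th percentile of the array, against the 77.3rd for the genes that fell, and 126 rising but 20 falling genes began under the 40th percentile. On this scale a dim gene can fall only as far as the floor, whereas its rise has no such bound. Mock level also enters the change that selected the genes, so the longer rises and their lower start are partly built in. The share of named genes called was 0.180%, 4.64%, 11.8% and 15.9% in 4 equal classes of rising mean signal, so few dim genes were called. The 3 arrays of one treatment lay beyond the 3 of the other for 13.8% (higher) and 16.7% (lower) of all probe sets, which holds many uncalled ones. All but 27 of the called probe sets had such separated arrays.

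**Figure D1:**
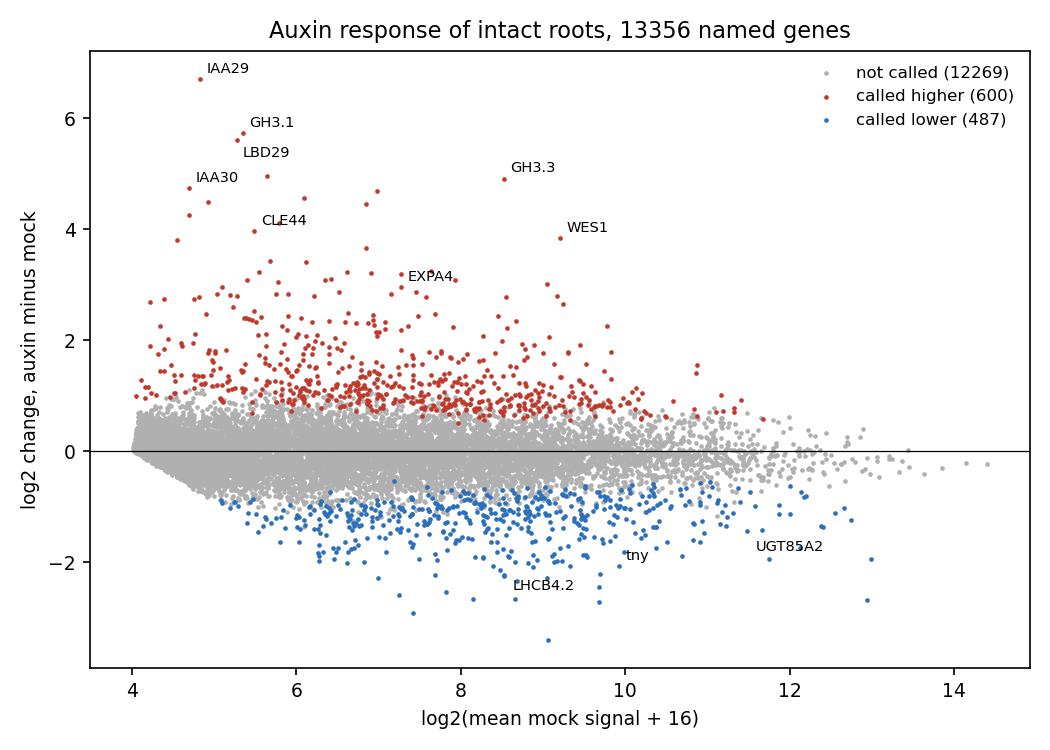
Log2 change with auxin (vertical axis, auxin minus mock) against log2 of the mean mock signal plus 16 (horizontal axis) for 13356 named genes of intact roots; each point is a gene, red for the 600 called higher, blue for the 487 called lower and grey for the others. The tallest rises start from low mock signals, while the falls are shorter and are nearly absent at the left. A gene at the left has little room to fall on this scale.

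Among the steepest rises were those of auxin's own signalling and conjugation genes. IAA29 (AT4G32280), an Aux/IAA repressor gene, had signals of 19.2, 1.30 and 16.8 in the mock arrays and 2770.0, 2993 and 2708 in the auxin arrays. It went from close to the floor of the array to a high level on every auxin array, a rise of 6.71 ± 0.29 (105-fold, adjusted p = 1.12e-19). Since its mock signal is small beside the pseudocount of 16, the fold depends on that choice: it was 300.7-fold with a pseudocount of 1 and 38.0-fold with 64. IAA30 (AT3G62100), another repressor gene of the family, had signals of 14.2, 5.42 and 10.2 in the mock arrays and 762, 605 and 648 in the auxin arrays. All its auxin arrays were far above all its mock arrays (4.74 ± 0.26, adjusted p = 1.17e-16). With pseudocounts of 1 and 64 the rise of IAA30 was 65.0-fold and 9.92-fold. IAA18 (AT1G51950) had signals of 112, 109 and 109.6 in the mock arrays and 446, 617 and 495 in the auxin arrays, with nearly equal mock arrays, and rose by 2.07 ± 0.29 (adjusted p = 2.24e-06). Of 7 Aux/IAA genes with a named probe set, these 3 were called higher and none lower, beside 4.49% higher among all named genes, and the median change was 1.10. IAA20 had a value of 1.09 ± 0.38 that missed the threshold (adjusted p = 0.0673), though its arrays did not overlap. IAA34 (-0.47), IAA31 (-0.08) and IAA33 (0.05) were not called.

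Of 5 GH3 genes, 4 were called higher and none lower, beside 4.49% higher and 3.65% lower among all named genes, and the median change was 3.83. GH3.1 (AT2G14960) had signals of 23.7, 27.1 and 23.8 in the mock arrays and 2222, 2064 and 2176 in the auxin arrays. The replicates of each treatment were nearly equal, and the rise was 5.73 ± 0.20 (53.1-fold, adjusted p = 7.31e-23). The rise of GH3.1 was 83.5-fold with a pseudocount of 1 and 24.95-fold with 64. GH3.3 (AT2G23170) was already expressed in mock roots, with signals of 297, 480.1 and 281 in the mock arrays and 10401, 11159 and 10766 in the auxin arrays. Its rise was 4.91 ± 0.22 (30.1-fold, adjusted p = 4.22e-19). WES1 (AT4G27260), also known as GH3.5, had signals of 593, 538 and 589 in the mock arrays and 7713, 9128 and 8361 in the auxin arrays and rose by 3.83 ± 0.20 (14.3-fold, adjusted p = 4.23e-17). GH3.17 (AT1G28130), which was bright in mock roots (1270.3, 1208 and 1142), was 1993, 1890.5 and 1988 with auxin, a change of 0.69 ± 0.21 (adjusted p = 0.0281). This is a small shift, and the call of GH3.17 was lost without mock array 1, 2 or 3 or auxin array 1, 2 or 3 (adjusted p 0.0569 to 0.101) and without the intensity trend (adjusted p 0.0622). GH3.9, at 0.35 ± 0.34 and dim (percentile 9.59 of the mock arrays), was not called. Of 7 other genes of auxin synthesis, oxidation and conjugation 0 were called higher and 1 lower, beside the same 4.49% and 3.65%. Their median was -0.24. The lower one was UGT74D1 (AT2G31750), whose product can glucosylate auxins, with 355, 347 and 374 in the mock arrays and 112, 94.9 and 143 in the auxin arrays. The arrays did not overlap and the change was -1.51 ± 0.32 (adjusted p = 0.00111). YUC2, YUC4 and YUC6, of the family that makes IAA, were at -0.08, -0.25 and -0.24 and were not called. These YUC genes were dim, at percentiles 28.0, 9.87 and 20.4 of the mock arrays, so a fall could hardly have been seen. WAG2, a kinase gene that acts on auxin transporters, was at 0.62 ± 0.26 and not called (adjusted p = 0.149). No SAUR gene and no auxin receptor or ARF gene is on a probe set named here.

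**Figure D2:**
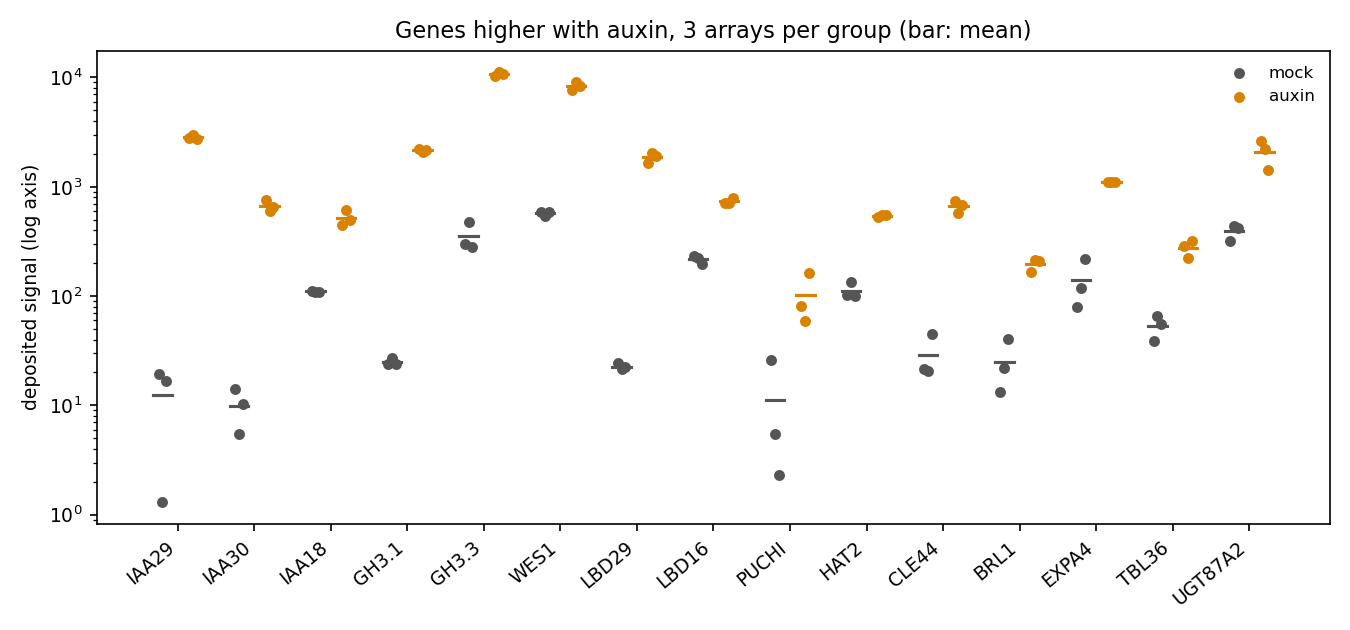
Deposited signal (vertical log axis) of 15 genes higher with auxin in intact roots; each dot is an array, grey for mock and orange for auxin, and bars are means of 3 arrays. For every gene shown the 3 orange dots lie above the 3 grey ones; GH3.3 and WES1 start above 250, while IAA29, IAA30, GH3.1, LBD29 and PUCHI start near or below 30.

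All 3 regulators of lateral root initiation with a named probe set rose, beside 4.49% of all named genes. LBD29 (AT3G58190), a transcription factor gene that acts downstream of ARF7 and ARF19 when lateral roots start, had signals of 24.2, 21.4 and 22.3 in the mock arrays and 1645, 2045 and 1894 in the auxin arrays. It passed from a low level on all mock arrays to a strong one on all auxin arrays (5.60 ± 0.35, 48.4-fold, adjusted p = 3.31e-15). With pseudocounts of 1 and 64 the rise of LBD29 was 78.5-fold and 22.1-fold. Its partner in the same process, LBD16 (AT2G42430), was well expressed before treatment, with 234, 224 and 197 in the mock arrays and 714, 715 and 787 in the auxin arrays. The treatments did not overlap, and it rose by 1.69 ± 0.28 (adjusted p = 3.73e-05). PUCHI (AT5G18560), an AP2-type transcription factor that shapes the primordium, had signals of 26.0, 5.43 and 2.30 in the mock arrays and 81.6, 58.8 and 164 in the auxin arrays. Its auxin arrays varied among themselves but all lay above the mock arrays, and the change was 2.11 ± 0.34 (adjusted p = 2.34e-05). The log2 change of PUCHI was 3.49 with a pseudocount of 1 and 1.10 with 64.

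CLE44 (AT4G13195), among the 24 largest rises, encodes a precursor of TDIF, the peptide that keeps vascular stem cells dividing and holds back xylem formation. Its signals were 21.5, 20.6 and 44.7 in the mock arrays and 747, 572 and 684 in the auxin arrays, a rise on every array of 3.96 ± 0.31 (15.6-fold, adjusted p = 2.21e-12). With pseudocounts of 1 and 64 the rise of CLE44 was 23.6-fold and 7.88-fold. BRL1 (AT1G55610), a brassinosteroid receptor gene of vascular cells picked after its values were seen, had signals of 13.2, 22.1 and 40.2 in the mock arrays and 165, 212 and 209 in the auxin arrays and rose by 2.40 ± 0.31 (adjusted p = 4.43e-07), or by 1.55 with a pseudocount of 64. HAT2 (AT5G47370), an auxin-induced HD-ZIP II transcription factor, went from 102, 134 and 100.2 to 530.4, 551 and 551, a rise of 2.14 ± 0.22 (adjusted p = 2.70e-09). RTE1, which acts with the ethylene receptor ETR1, rose by 1.57 ± 0.34 (adjusted p = 0.00108, and 1.04 with a pseudocount of 64), whereas EIN3, the main ethylene transcription factor, was at -0.22 ± 0.20 and not called. Of 3 ethylene genes, RTE1 was the 1 called, beside 4.49% higher and 3.65% lower among all named genes. None of 6 cytokinin response regulator genes was called by limma, beside the same 4.49% and 3.65%, and 0 had an unadjusted p under 0.05. Their median was 0.06 and all were dim, with none above percentile 22.2 of the mock arrays. Of 7 WRKY factors 2 were higher and none lower, beside 4.49% higher and 3.65% lower among all named genes: WRKY53, a regulator of leaf senescence, rose by 1.79 ± 0.32 (adjusted p = 7.99e-05) and WRKY6 by 0.89 ± 0.21 (adjusted p = 0.00259). The list of nitrate and phosphate transporters held 12 named genes, all of nitrate transporter-type families and none a phosphate transporter gene. Of these 12, 1 was called higher and none lower, beside the same 4.49% and 3.65%. This was AT1G59740 (NPF4.3), with 2.55, 11.4 and 1.03 in the mock arrays and 95.7, 134 and 139 in the auxin arrays. It rose from a dim level on every array by 2.74 ± 0.36 (adjusted p = 4.96e-07), or by 4.77 and 1.43 with pseudocounts of 1 and 64.

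Many of the largest rises belong to loci that carry a locus number alone in the gene table. AT4G37295 had signals of 31.8, 28.1 and 42.0 in the mock arrays and 1309, 1555 and 1736 in the auxin arrays. Its neighbour AT4G37290 had 8.14, 9.51 and 11.96 in the mock arrays and 401, 487 and 548 in the auxin arrays. The pair rose by 4.95 ± 0.45 and 4.25 ± 0.38, and the groups of neither overlapped. With a pseudocount of 1 they were at 5.465 and 5.468, and with 64 at 4.02 and 2.87. AT4G17350, with 144, 93.5 and 93.2 in mock and 3537, 3459 and 2647 in auxin roots, rose by 4.69 ± 0.25. AT3G03170 rose by 4.57 ± 0.24, AT2G03850 by 4.49 ± 0.37, AT1G67750 by 4.46 ± 0.32 and AT1G75640 by 4.10 ± 0.31, each with separated groups. The rest of the 24 largest rises ran down from 3.81 to 3.1: AT3G60650, AT1G30760, AT3G59850, AT5G62280, AT1G62770, SETH6, AT1G29195, AT2G38010, AT5G51380 and AT4G37380. All 24 had adjusted p-values of 1.31e-07 or less. The dim AT3G60650 moved to 2.37 with a pseudocount of 64. AT2G03850, also dim, was at 5.49 and 3.21 with pseudocounts of 1 and 64. The following were picked after their values were seen, from the 20 largest rises among genes with a symbol. They were the RING-type ubiquitin ligase gene ATL63 (3.09 ± 0.30), the serine carboxypeptidase-like gene scpl28 (2.33 ± 0.26), P1R3 (2.11 ± 0.31) and PR-1-LIKE (1.96 ± 0.34). The call of PR-1-LIKE was lost with a pseudocount of 1 (adjusted p 0.0989).

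Of 19 expansins, proteins that let cell walls stretch, 3 were higher and 2 lower, beside 4.49% higher and 3.65% lower among all named genes, and the median was 0.04. EXPA4 (AT2G39700) had signals of 79.3, 118 and 220.1 in the mock arrays and 1112, 1099 and 1099.5 in the auxin arrays. The auxin arrays were almost identical and far above the mock arrays, a rise of 2.96 ± 0.34 (7.76-fold, adjusted p = 2.36e-08). EXPA20 rose by 1.44 ± 0.28 and EXPA9 by 0.76 ± 0.21, though the call of EXPA9 was lost without mock array 3 or auxin array 1 or 3 (adjusted p 0.0663 to 0.191). EXPB1 (AT2G20750) fell from 136, 49.5 and 69.6 to 12.9, 12.3 and 11.04, where the auxin arrays were equally low (-1.76 ± 0.32, adjusted p = 0.000126, and -0.93 with a pseudocount of 64). EXLB1 fell by 0.98 ± 0.32 (by 0.54 with a pseudocount of 64), but the call of EXLB1 was lost without mock array 1, 2 or 3 or auxin array 1, 2 or 3 (adjusted p 0.0777 to 0.148), after quantile normalization (adjusted p 0.1) and with a pseudocount of 1 (adjusted p 0.292). Among 10 xyloglucan endotransglucosylases, which cut and rejoin wall xyloglucan, 1 was higher and 4 lower, beside the same 4.49% and 3.65%, with a median of -0.20. XTH19 had signals of 889, 908 and 1398 in the mock arrays and 2009, 2249.6 and 2318 in the auxin arrays, a rise of 1.06 ± 0.19 (adjusted p = 0.000121). The lower ones were XTH21 (-1.13 ± 0.33), XTH33 (-1.08 ± 0.30), XTH16 (-0.88 ± 0.29) and EXGT-A3 (-0.70 ± 0.22), and each call was lost under some alternatives. With a pseudocount of 64 XTH21 was at -0.44 and XTH16 at -0.52, and with a pseudocount of 1 XTH21 was at -2.66. The call of XTH21 was lost without mock array 1 or 3 or auxin array 2 or 3 (adjusted p 0.0548 to 0.113) and with a pseudocount of 64 (adjusted p 0.126). The call of XTH33 was lost without mock array 2 or auxin array 1 (adjusted p 0.0716 to 0.132) and with a pseudocount of 1 (adjusted p 0.128). The call of XTH16 was lost without mock array 1, 2 or 3 or auxin array 1, 2 or 3 (adjusted p 0.07 to 0.228), after quantile normalization (adjusted p 0.0841), with a pseudocount of 1 (adjusted p 0.0707) and with a pseudocount of 64 (adjusted p 0.0505). The call of EXGT-A3 was lost without mock array 1 or auxin array 1 or 3 (adjusted p 0.0792 to 0.248) and without the intensity trend (adjusted p 0.0665).

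The family of TBL proteins, some of which add acetyl groups to wall polysaccharides, had 1 of 23 members higher and 6 lower, beside 4.49% higher and 3.65% lower among all named genes. The median was -0.51, beside -0.03 for all named genes. AT2G31110 (TBL40) had signals of 406, 430.0 and 352 in the mock arrays and 68.3, 74.6 and 53.4 in the auxin arrays. It fell on every array by 2.34 ± 0.34 (adjusted p = 2.87e-06), and its second probe set also fell, by 1.61. TBL38 (AT1G29050) had 1022, 869 and 579 in the mock arrays and 233, 311 and 230.1 in the auxin arrays, a fall of 1.59 ± 0.30 (adjusted p = 0.000242). TBL37 fell by 1.39 ± 0.21, and TBL25, TBL39 and TBL19 by 1.06, 0.93 and 1.14. The last 3 calls did not hold throughout: the call of TBL25 was lost without auxin array 1 (adjusted p 0.0601), the call of TBL39 was lost without mock array 1 or 2 or auxin array 2 (adjusted p 0.0528 to 0.0992), and the call of TBL19 was lost without mock array 1 or 3 or auxin array 2 or 3 (adjusted p 0.0632 to 0.21), after quantile normalization (adjusted p 0.0704) and with a pseudocount of 1 (adjusted p 0.176). TBL19 was at -0.66 with a pseudocount of 64. TBL36 (AT3G54260) went the other way, from 38.7, 65.4 and 55.7 to 286, 225 and 318, a rise of 2.08 ± 0.29 (adjusted p = 1.80e-06). Pectin methylesterases, which remove methyl groups from pectin, had 1 of 4 listed members lower, beside 3.65% of all named genes: PMEPCRF at -0.96 ± 0.26. The call of PMEPCRF was lost without mock array 1 or 2 or auxin array 1 (adjusted p 0.054 to 0.0798). A further gene of the kind, ATPMEPCRD (AT2G43050), was among the 16 largest falls, with 266, 283 and 503 in the mock arrays and 55.6, 70.0 and 52.5 in the auxin arrays (-2.23 ± 0.36, adjusted p = 2.15e-05). Of 11 listed cellulose and secondary wall genes, 0 were called higher and 1 lower, beside the same 4.49% and 3.65%. None of the 11 is a CESA cellulose synthase gene, and most are cellulose synthase-like (CSL) genes. The list therefore says little about cellulose synthesis. The 1 called was COB, which encodes the wall protein COBRA needed for oriented cell expansion, lower by 0.74 ± 0.23. The call of COB was lost without mock array 1, 2 or 3 or auxin array 1, 2 or 3 (adjusted p 0.0582 to 0.0897) and without the intensity trend (adjusted p 0.066). The endoglucanase genes GH9C2 and GH9B17, picked after their values were seen, moved apart, at 2.32 ± 0.25 and -1.60 ± 0.35. For GH9B17 the change was -0.88 with a pseudocount of 64, and the call of GH9B17 was lost with a pseudocount of 1 (adjusted p 0.0621).

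Among named genes on the scale used here, the deepest fall was that of AT1G19900, from 479, 553 and 526 in mock to 33.7, 35.6 and 34.9 in auxin roots. Replicates agreed closely, and the fall was 3.40 ± 0.35 (10.5-fold, adjusted p = 2.56e-09). With a pseudocount of 1 it was at -3.86, and AT3G62550 and AT4G24050 fell further. Of all probe sets, named or not, 11 were called lower by over 8-fold. AT3G01190, the brightest of the 16 genes that fell most, had 7937, 7697 and 7948 in the mock arrays and 1191, 1308 and 1156 in the auxin arrays and a fall of 2.68 ± 0.35 (6.39-fold). AT3G20015 fell from 797, 894 and 713 to 126, 122 and 81.8, a change of -2.71 ± 0.36. AT3G62550 had 145, 119.8 and 199.5 in the mock arrays and 1.07, 21.4 and 0.937 in the auxin arrays, and its change of -2.92 ± 0.40 became -5.09 and -1.60 with pseudocounts of 1 and 64. Of the others among the 16 largest, AT2G39040, AT4G37220, AT4G24050, AT5G45650, AT5G02890, AT5G63180, AT3G43960, AT2G48080 and AT1G72200 fell by between 2.66 and 2.20. The dim ones among them moved with a pseudocount of 64: AT4G24050 to -1.43, AT5G45650 to -1.61, AT5G63180 to -1.23 and AT2G48080 to -1.46. With a pseudocount of 1, AT4G24050 was at -4.18 and AT5G63180 at -3.57.

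Among falling genes with a symbol, listed after their values were seen, was the transcription factor gene tny (AT5G25810), of the AP2/ERF family, with signals of 863, 935 and 1062 in the mock arrays and 206, 244 and 194 in the auxin arrays. Every auxin array lay far below every mock array (-2.07 ± 0.29, adjusted p = 2.12e-06). GT2, a trihelix transcription factor gene, fell by 1.80 ± 0.30. The actin gene ACT11 fell by 1.73 ± 0.26 (by 1.12 with a pseudocount of 64), the beta-tubulin gene TUB1 by 1.40 ± 0.26, the microtubule bundling gene ATMAP65-6 by 1.63 ± 0.29, and IQD19, of a calmodulin-binding family, by 1.57 ± 0.37 (by 0.90 with 64). TUB1 had signals of 571, 503 and 530.4 in the mock arrays and 136, 219 and 238 in the auxin arrays, so the groups did not overlap. SWEET17, a vacuolar fructose transporter gene, fell by 1.58 ± 0.30, the kinase gene WNK7 by 1.57 ± 0.35, and RALFL27, which encodes a RALF-like signalling peptide, by 1.40 ± 0.34. The glutamate receptor-like channel gene GLR3.5 fell by 1.47 ± 0.40, or by 2.34 and 0.72 with pseudocounts of 1 and 64, and the call of GLR3.5 was lost without mock array 3 or auxin array 1 (adjusted p 0.0751 to 0.08) and with a pseudocount of 1 (adjusted p 0.0585).

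**Figure D3:**
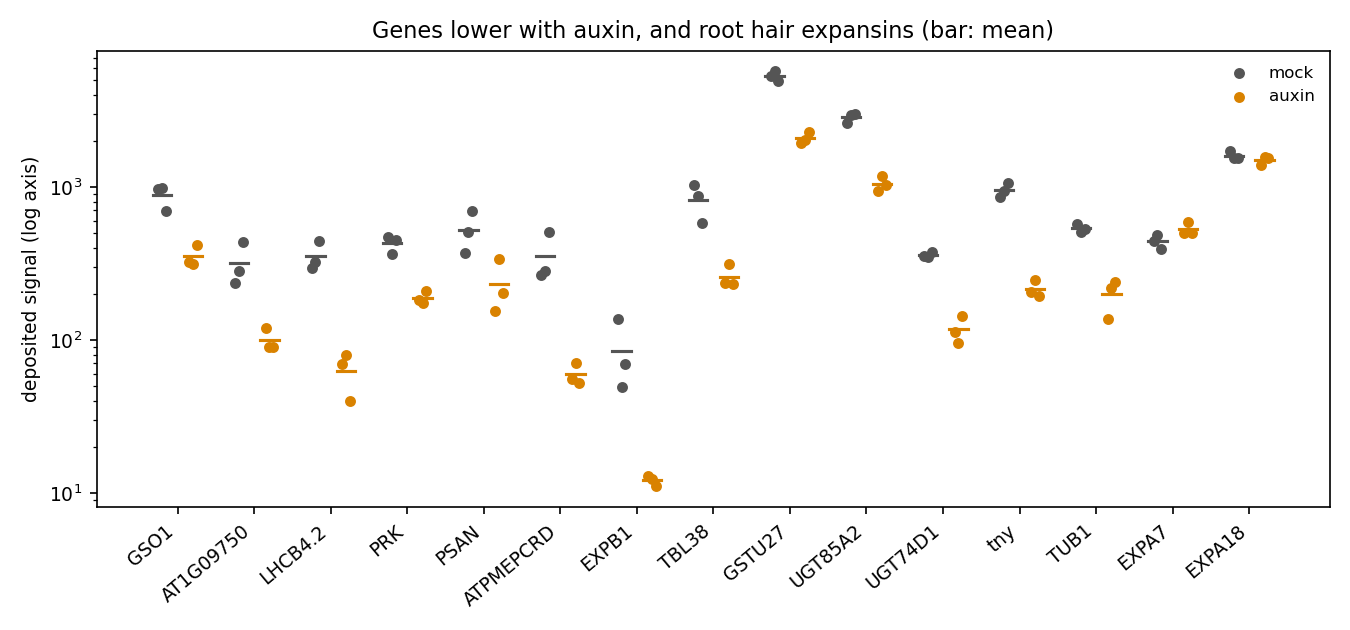
Deposited signal (vertical log axis) of 13 genes lower with auxin in intact roots, followed by the root hair expansins EXPA7 and EXPA18, which were not called; each dot is an array, grey for mock and orange for auxin, and bars are means of 3 arrays. The orange dots lie below the grey ones for all 13, while for EXPA7 and EXPA18 both colours sit at about the same height.

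Of 51 UDP-glycosyltransferases, which attach sugars to hormones and small metabolites, 3 were higher and 7 lower, beside 4.49% higher and 3.65% lower among all named genes, with a median of -0.16. UGT87A2 (AT2G30140) rose from 317, 438 and 418 to 2595, 2229.7 and 1435 (2.34 ± 0.38, adjusted p = 1.94e-05). UGT73B1 fell from 471, 602 and 565 to 130.5, 142 and 147 (-1.85 ± 0.28, adjusted p = 9.51e-06). UGT72E1, of a group that glucosylates lignin precursors, fell by 1.53 ± 0.33, and UGT85A2 fell from 2607, 2932 and 2999.6 to 939.7, 1169.5 and 1035 (-1.43 ± 0.19, adjusted p = 9.39e-07). Of the other lower members, the call of UGT76C2 was lost without mock array 1 or 2 or auxin array 2 or 3 (adjusted p 0.0628 to 0.174) and with a pseudocount of 1 (adjusted p 0.117), and the call of UGT72B3 was lost without mock array 2 (adjusted p 0.0539) and with a pseudocount of 1 (adjusted p 0.223). Of 13 tau and phi glutathione S-transferases, 0 were higher and 3 lower, beside the same 4.49% and 3.65%. GSTU27 had signals of 5313, 5672 and 4897 in the mock arrays and 1922, 2015 and 2276 in the auxin arrays, a fall of 1.35 ± 0.19 (adjusted p = 2.07e-06). GSTU26 fell by 1.13 ± 0.22 and GSTU28 by 1.20 ± 0.36, but the call of GSTU28 was lost without mock array 1 or 3 or auxin array 1 or 2 (adjusted p 0.0812 to 0.13) and without the intensity trend (adjusted p 0.0567). Of 22 cytochrome P450 genes, CYP71B34 (-1.39 ± 0.32) and CYP71B37 (-1.27 ± 0.28) were lower and none higher, beside the same 3.65% and 4.49%. The median of the 22 was -0.35. The call of CYP71B34 was lost with a pseudocount of 1 (adjusted p 0.0858).

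Markers of the endodermis and cortex, 4 of which have a named probe set, had 2 members called lower and 0 called higher, beside 3.65% and 4.49% of all named genes, with a median of -0.98. GSO1 (AT4G20140), also called SGN3, is a receptor kinase that guards the integrity of the Casparian strip, the endodermal barrier. Its signals were 966, 981 and 692 in the mock arrays and 322, 313 and 419 in the auxin arrays, with no overlap, a fall of 1.28 ± 0.28 (adjusted p = 0.00122). AT1G09750, used as a cortex marker, had 235, 284 and 436 in the mock arrays and 119.9, 89.5 and 89.8 in the auxin arrays and fell by 1.49 ± 0.35 (adjusted p = 0.00265). JKD, a transcription factor that sets the endodermis boundary, was at -0.68 ± 0.35 (adjusted p = 0.305), and the cortex marker AT1G62500 at 0.08 ± 0.34. Neither was called, and AT1G62500 was dim, at percentile 22.4 of the mock arrays. Summed over the 4 genes, the signal was 1247 to 1388 in mock and 485.5 to 596.1 in auxin arrays, and 151.0 to 842.9 in mock and 244.0 to 760.6 in auxin arrays of the sorted tissues. In whole roots, fewer cells of a type and less RNA per cell cannot be told apart.

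The root hair list held 3 named genes, and none was called in intact roots, beside 4.49% higher and 3.65% lower among all named genes. With so few genes, the absence of a call says little about root hair genes as a group. EXPA18 (AT1G62980) had signals of 1716, 1543 and 1537 in the mock arrays and 1398, 1568 and 1549 in the auxin arrays, EXPA7 (AT1G12560) had 445, 484 and 393 in the mock arrays and 498, 589 and 499 in the auxin arrays, and the groups overlapped for EXPA18 but not for EXPA7. None of 3 was called by limma and 0 had an unadjusted p under 0.05; EXPA18 was at -0.09 ± 0.36, EXPA7 at 0.26 ± 0.34 and XTH26 at 0.29 ± 0.36. Their summed signal was 2551 to 2820 in mock and 2636 to 3220 in auxin arrays, against 115.3 to 754.0 in mock and 12.2 to 88.4 in auxin arrays of the 4 sorted tissues.

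Among 8 photosynthesis genes of the nucleus, which mark green tissue, 3 fell and none rose with auxin, beside 3.65% lower and 4.49% higher among all named genes. All 8 had values below 0, and the median was -0.83. LHCB4.2 (AT3G08940), a light-harvesting antenna gene of photosystem II, had signals of 294, 323 and 440.0 in the mock arrays and 69.3, 79.2 and 39.9 in the auxin arrays. It was clearly lower on every auxin array (-2.24 ± 0.30, adjusted p = 6.77e-07). PRK (AT1G32060), an enzyme gene of the Calvin cycle, went from 471, 364 and 451 to 181, 175 and 208 (-1.12 ± 0.27, adjusted p = 0.00393). PSAN, a photosystem I subunit gene, had 372, 509 and 691 in the mock arrays and 154, 339 and 201 in the auxin arrays and fell by 1.15 ± 0.38 (adjusted p = 0.0488), but the call of PSAN was lost without mock array 2 or 3 or auxin array 1 or 3 (adjusted p 0.121 to 0.269), with a pseudocount of 1 (adjusted p 0.204) and without the intensity trend (adjusted p 0.0568). LHCB4.1 (-0.93 ± 0.32, adjusted p = 0.0548), PSBW, PSBY, PSAE-1 and LHCB4.3 (-0.72, -0.69, -0.69 and -0.20) were not called. NdhS, a subunit gene of the chloroplast NADH dehydrogenase-like complex picked after its values were seen, fell by 1.63 ± 0.28. The summed signal of the 8 list genes was 3260 to 4822 in mock and 1624 to 2378 in auxin arrays of intact roots, against 272.9 to 1222 in mock and 521.9 to 2437 in auxin arrays of the sorted tissues. In the sorted average 6 of the 8 genes were called higher and 0 lower. How much green tissue each sample held was not measured, and its part in the result was not tested. Of 69 genes of the plastid genome, none was called by limma, beside 4.49% higher and 3.65% lower among all named genes. An unadjusted p under 0.05 was found for 3 of the 69, beside 4236 of all 22746 probe sets. Values of the 69 ran from -0.61 to 0.26 with a median of -0.24, beside -0.03 for all named genes.

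Lists that mark dividing cells gave no call, beside 4.49% higher and 3.65% lower among all named genes. They held few named genes, so this cannot show whether cell division changed. None of 5 core histone genes was called, 0 had an unadjusted p under 0.05, and the median was 0.07. The replication gene PRL (MCM7) was at 0.51 ± 0.31, the meristem gene BBM at 0.15 ± 0.41, the stele gene PHV at 0.53 ± 0.40, the epidermis gene TRY at 0.47 ± 0.35 and the 1 named ribosomal protein gene, AT1G77750, at 0.36 ± 0.23; limma called none of these 5 and none had an unadjusted p under 0.05. BBM, PHV and TRY were dim, at percentiles 27.5, 35.9 and 19.1 of the mock arrays. Lists of root cap, suberin, aquaporin and MYB genes, and of gibberellin and brassinosteroid metabolism, had no gene on a probe set named here. The lists of peroxidases and of leucine-rich repeat kinases were void, so these families were not counted as sets, though single members may be named above.

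**Figure D4:**
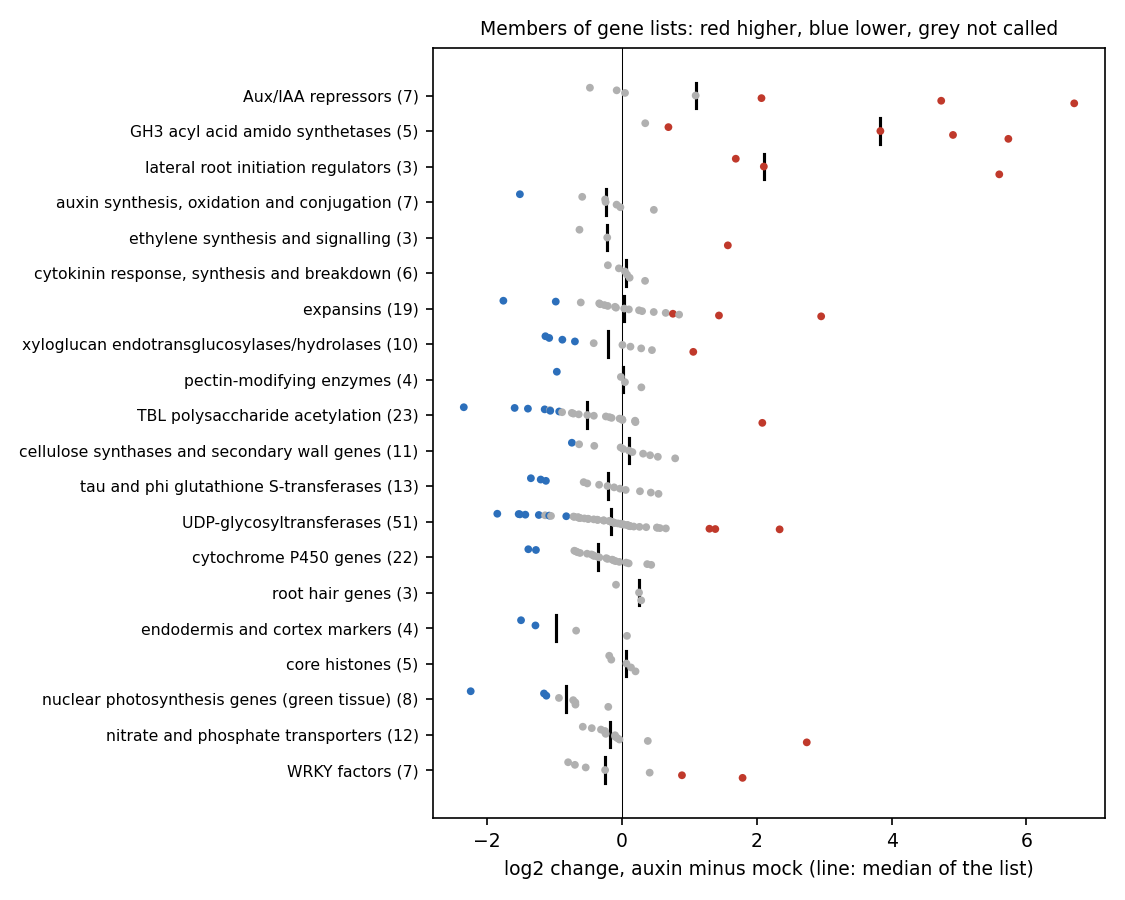
Log2 change with auxin in intact roots (horizontal axis) of every named member of the 20 gene lists with at least 3 of them; each dot is a gene, red if called higher, blue if called lower and grey if not called, the vertical tick is the list's median and the number in brackets is the count of genes. Aux/IAA, GH3 and lateral root genes reach far to the right, whereas photosynthesis, endodermis and cortex, and TBL genes lie mostly to the left of 0.

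How the response of intact roots compared with that of the sorted cells was asked with 1 contrast, the intact response minus the mean of the 4 sorted responses. The groups share no arrays, but digestion, sorting and the longer exposure all differ between them and cannot be told apart. Over all probe sets 951 (4.18%) had a higher and 1031 (4.53%) a lower response in intact roots. The lower count was 644 without mock array 2, 640 without mock array 3 and 676 without auxin array 1. Among the named genes, 473 (3.54%) had a higher and 529 (3.96%) a lower response in intact roots.

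Calls were also set side by side. Of the 600 genes higher in intact roots, 305 were also higher in the sorted average (50.8% of the intact and 12.7% of the sorted list, with 17.9% of all named genes called there), and 56 were lower there, beside 11.1%. By tissue, 223 of the 600 were also higher in the stele (37.2% of the intact and 16.9% of the stele list, with 9.90% of all named genes called there), 122 in the pericycle (20.3% and 19.6%, with 4.66%), 100 in the epidermis (16.7% and 18.2%, with 4.13%) and 87 in the columella (14.5% and 25.8%, with 2.52%). In all 4 tissues 47 were higher, and in none 324. Of the 487 lower genes, 222 were also lower in the sorted average (45.6% and 15.0%, with 11.1%), and 38 were higher there, beside 17.9%. By tissue, 154 of the 487 were lower in the stele (31.6% and 17.0%, with 6.78%), 142 in the epidermis (29.2% and 23.3%, with 4.57%), 114 in the pericycle (23.4% and 21.2%, with 4.02%) and 76 in the columella (15.6% and 24.9%, with 2.28%); 41 were lower in all 4 and 273 in none. A gene not called in a tissue is not shown to be unchanged there.

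Within auxin's core genes the comparison came out differently by member. The rise of IAA29 differed from its sorted average by 0.65 ± 0.32 (adjusted p = 0.254), that of IAA30 by 0.39 ± 0.29 (adjusted p = 0.515) and that of HAT2 by -0.04 ± 0.25 (adjusted p = 0.953), so none of these differences was called. GH3.3 and WES1 rose less in intact roots, with differences of -2.06 (adjusted p = 1.37e-07) and -1.10 (adjusted p = 0.000926). GH3.1 and IAA18 rose more, with differences of 4.36 (adjusted p = 2.60e-17) and 1.52 (adjusted p = 0.00161). Of the regulators named here, LBD29 differed most: it rose by 5.60 ± 0.35 in intact roots and by 0.51 ± 0.17 on average in sorted cells (difference 5.08 ± 0.39, adjusted p = 2.00e-12). By tissue, LBD29 was called higher in the pericycle, at 1.84, and was at 0.53 in the stele, -0.04 in the epidermis and -0.28 in the columella, where it was not called. LBD16 differed by -0.16 ± 0.32 (adjusted p = 0.863). CLE44, with a sorted value of 0.11 ± 0.16, differed by 3.85 ± 0.35 (adjusted p = 1.82e-10).

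Some genes were called in opposite directions in intact roots and in the sorted average. AT1G67750 rose in intact roots by 4.46 ± 0.32 and changed by -1.71 ± 0.16 in sorted cells, the largest difference among genes called in both tests (6.17, adjusted p = 1.46e-15). AT3G22540, with 847, 993 and 834 in the mock arrays and 3207, 3526 and 2688 in the auxin arrays of intact roots, rose there by 1.79 ± 0.24 but changed by -2.70 ± 0.12 in sorted cells. AT2G18980 (2.18 against -2.68) and AT3G59850 (3.42 against -1.39) had the same pattern, and AT3G03170 rose by 4.57 in intact roots against a sorted value of -0.30 ± 0.12 that was not called. AT3G50300 fell in intact roots by 2.06 and rose in sorted cells by 0.48 ± 0.17. AT3G62550, AT4G37220 and AT3G20015 fell in intact roots by 2.92, 2.66 and 2.71, and their sorted values of 0.39 ± 0.20, 0.42 ± 0.20 and 0.04 ± 0.18 were not called. AT2G17680 rose less in intact roots (1.29 ± 0.39) than in sorted cells (3.75 ± 0.19); its intact signals were 2.22, 0.225 and 1.22 in the mock arrays and 10.5, 38.1 and 35.5 in the auxin arrays, its change was 3.62 and 0.48 with pseudocounts of 1 and 64, and the call of AT2G17680 was lost without mock array 1, 2 or 3 or auxin array 2 or 3 (adjusted p 0.0613 to 0.139) and with a pseudocount of 64 (adjusted p 0.349). The photosynthesis genes LHCB4.2 and PRK, which fell in intact roots, had sorted changes of 0.45 and 1.20, and the differences were -2.69 ± 0.33 (adjusted p = 2.53e-07) and -2.32 ± 0.30 (adjusted p = 6.14e-07). The root hair expansins EXPA18 and EXPA7 changed by -2.81 ± 0.18 and -1.84 ± 0.17 in sorted cells and were not called in intact roots, differences of 2.72 ± 0.40 (adjusted p = 6.41e-06) and 2.10 ± 0.38 (adjusted p = 0.000193). GSO1 fell in intact roots by 1.28 and rose in the sorted average by 0.62 ± 0.14 (adjusted p = 0.000526). In none of the 4 tissues alone was GSO1 called. Its difference was -1.90 ± 0.31 (adjusted p = 3.33e-05).

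**Figure D5:**
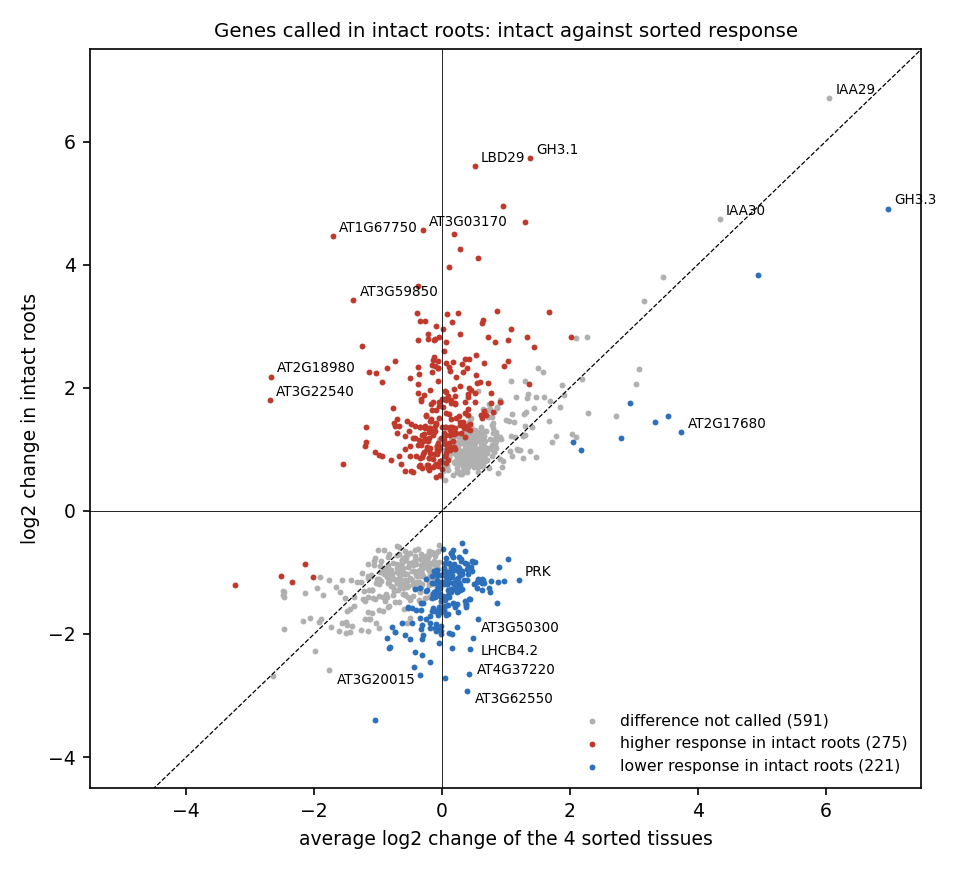
Log2 change with auxin in intact roots (vertical axis) against the average log2 change of the 4 sorted tissues (horizontal axis) for the 1087 genes called in intact roots; each point is a gene, red or blue where the intact response was called higher or lower than the sorted average and grey where the difference was not called, and the dashed line marks equal changes. IAA29 and IAA30 lie near the dashed line, GH3.3 lies below it, and LBD29, GH3.1 and AT1G67750 stand far above it.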

How the data were processed

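RNA of intact and sorted root samples was amplified, labelled with biotin and hybridised to single-colour oligonucleotide arrays, per the labels' protocols. The authors deposited 1 MAS5 signal intensity on a linear scale for each probe set of each array, according to the submitters' processing notes. The chip definition, build and program version: not given in the sources used here. In the files, the deposited intensity values had a mean of 250.0 on every array after the lowest and highest 2% were left out, so arrays are comparable as scaled. Of 22810 probe sets, 64 controls were left out. The platform annotation pairs 13513 with 1 gene, 503 with several and does not list 8730; 13436 of the first kind matched the RefSeq gene table (TAIR10.1), used for names and neighbours only, which gave 13356 genes, each read from its brightest probe set. A gene that changed may thus be unnamed here.

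Values were analysed as log2(signal + 16), which understates changes of dim genes. limma 3.58.1 in R 4.3.3 fitted a mean for each of 10 groups over all 30 arrays with an intensity trend, no filter and 20 residual degrees of freedom; the median residual SD was 0.355 and the median SE of a response 0.29 (log2). Tests were two-sided with Benjamini-Hochberg adjustment over 22746 probe sets, and the number of arrays limits the precision. The fit was tested on simulated data. Pandas 2.3.3 in Python 3.11.15 and matplotlib 3.10.9 made the tables and figures. Same-numbered mock and auxin arrays of intact roots showed little shared deviation, and the main fit has no replicate block. The sorted arrays were not checked for this.

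Named are, among called genes with separated arrays, the 24 that rose most and the 16 that fell most. Also named are up to 4 called and 2 uncalled members of each list. The 6 largest differences each way from the sorted average were taken among genes called in that difference and in the intact root response. Further list members and genes with a symbol were added after their values were seen. The members and the 37 lists were chosen with earlier results of these data known. The peroxidase and kinase lists needed gene descriptions, which the table does not hold, and were void.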

Additional observations from a re-analysis of the deposited data

Results flagged for a closer look

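The response of intact roots differed from the mean response of the 4 sorted tissues, by a test of that difference, for 1982 probe sets: 951 lay higher and 1031 lay lower in intact roots. Genes were ranked only if they were named and called both in this difference and in the intact root response. Of these, the genes with the largest higher differences (log2, intact minus sorted) were AT1G67750 at 6.17, LBD29 at 5.08, AT3G03170 at 4.86, AT2G18980 at 4.86, AT3G59850 at 4.81 and AT3G22540 at 4.49. Those with the largest lower differences were AT3G62550 at -3.31, AT4G37220 at -3.07, AT3G20015 at -2.76, LHCB4.2 at -2.69, AT3G50300 at -2.54 and AT2G17680 at -2.46. Among photosynthesis genes, PRK differed by -2.32, PSAN by -1.70, LHCB4.1 by -1.62, PSBY by -1.29 and PSBW by -1.02. Among root hair genes, EXPA18 differed by 2.72 and EXPA7 by 2.10. All these differences had an adjusted p under 0.05 (limma); digestion, sorting and exposure length cannot be told apart in them.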

How the results depend on the processing

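Of 108 called genes named from the lists and rules, 87 kept their call under every alternative run, 21 lost it under at least 1 and 0 changed direction; 18 of the 21 lost it with 1 array left out. Where the arrays of the 2 treatments do not overlap, leaving out 1 array or changing the pseudocount cannot reverse a change. The absence of reversals there was fixed in advance. Of 171 uncalled genes, 25 were called under at least 1 alternative, among them LHCB4.1. With 1 array left out, the higher probe sets numbered 796 to 966 and the lower ones 696 to 804, and the higher and lower differences from the sorted average 721 to 777 and 640 to 775. Array weights gave 1970 higher and 1991 lower probe sets and 1624 and 2035 differences; with 1 probe set per gene and the filter on dim ones, where fewer probe sets were tested, the counts were 616 and 498, and 491 and 543. A fit of the 6 intact root arrays alone gave 1671 and 1788, and it cannot give the difference from sorted cells. The shares of higher calls ran from 48.1% to 56.6% over all settings, with 52.8% in the main one. The median change of all probe sets was -0.02 after quantile normalization and -0.04 after centring on the 75th percentile. The log2 change of 22 called genes moved by over 1.5 times with a pseudocount of 1 or 64, and of 0 under other alternatives. Same-numbered mock and auxin arrays of intact roots had r of 0.06, 0.01 and -0.01 between their deviations from the group means. So few pairs cannot show whether the numbers pair the arrays. A fit with the replicate block gave 1361 higher and 1185 lower probe sets, and 1173 and 1259 differences. The cause of these shifts was not tested. Dim genes, near the array floor, limit what could be called.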

Other observations

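Some genes that changed lie next to each other. Among 5814 pairs of neighbouring genes in which both had a named probe set, both were called higher in 36 (0.619%), both lower in 14 (0.241%), and in opposite directions in 17. Among all named genes, 4.49% were called higher and 3.65% lower. Whether these pairs exceed what unrelated genes would give was not tested. Besides AT4G37290 and AT4G37295, the pairs included IAA30 (4.74) with AT3G62110 (1.80), LBD29 (5.60) with AT3G58180 (1.20), AT3G60650 (3.81) with the autophagy gene ATG8G (1.25), and AT4G35200 (2.31) with AT4G35210 (2.06). TUB1 (-1.40) fell beside AT1G75770 (-0.87), and WNK7 (-1.57) beside AT1G49170 (-1.29). Pairs overlap where 3 genes in a row were called, as with AT2G37990 (1.06), AT2G38000 (0.93) and AT2G38010 (3.21). Whether RNA of 1 transcript reached both probe sets of a pair was not tested.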
